A study of Mus musculus with 15 samples.

Results

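The secreted and cell-surface part of the Wnt pathway was examined in whole mouse ovaries as 31 genes of 6 families. These are the Wnt ligands, the R-spondins (Rspo), the Frizzled receptors (Fzd), the leucine-rich repeat receptors of R-spondins (Lgr), and the secreted inhibitors of the Sfrp and Dickkopf (Dkk) families. They were chosen by symbol (Wnt, Fzd, Sfrp, Dkk, Rspo or Lgr followed by a digit) and by level, with 5 or more of the 15 libraries at 10 or above. Of 24656 genes listed, 39 rows matched by symbol and 31 passed on level, namely 10 Wnt, 3 Rspo, 10 Fzd, 3 Lgr, 3 Sfrp and 2 Dkk genes. The 8 that did not pass were Wnt1, Wnt2, Wnt7a, Wnt9b, Wnt16, Sfrp5, Rspo4 and Rspo4os, an antisense transcript, and they are not described further. Fzd9, with 5 libraries at 10 or more and a highest value of 17.5, lay just inside the limit. Wnt2, with 1 such library and a highest value of 11.9, and Wnt16, with a highest value of 13.6, lay just outside it.

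The mice were UM-HET3, a stock bred from several inbred strains in which each animal has its own genotype. There were 3 groups of 5 libraries: untreated mice at 6 months of age (6-month controls), untreated mice at 12 months (12-month controls), and 12-month-old mice that had received canagliflozin, an inhibitor of the renal glucose transporter SGLT2, from 6 months of age onward (canagliflozin group). Per the labels, RNA of the 12-month groups came from 1 whole ovary of each mouse, and the handling of the 6-month ovaries is not described there, so age and any difference in handling cannot be told apart. The labels name neither a stage of the oestrous cycle nor a dose of the drug.

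Wnt proteins are lipid-modified ligands that bind a Frizzled receptor together with the co-receptors Lrp5 or Lrp6. In the canonical branch this binding keeps beta-catenin from being destroyed, and beta-catenin then acts with TCF/LEF factors on target genes such as Axin2. R-spondins, bound to Lgr4, Lgr5 or Lgr6, take the ubiquitin ligases Znrf3 and Rnf43 off the cell surface and so leave more Frizzled in place, while Sfrp proteins bind Wnt ligands and Dkk proteins block the co-receptors. In the mouse ovary, Rspo1 and Wnt4 are known for their part in ovary development, Fzd4 for the corpus luteum, Sfrp4 for expression in granulosa and luteal cells, and Lgr5 for cells of the surface epithelium.

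Recovered depth was 8.47 to 13.6 M reads per library (M for mega; the canagliflozin group 8.47 to 13.05, the 12-month controls 11.3 to 13.1 and the 6-month controls 11.8 to 13.6). Values below are the deposited normalised reads, that is reads divided by 1 size factor per library. The ovary label was checked with fixed marker lists. All 8 granulosa markers and all 7 luteal markers were above 0 in every library, and the 4 oviduct markers summed to only 34.1 to 298 normalised reads. In bulk tissue, fewer cells of a type and less RNA per cell cannot be told apart. The 12-month control replicate 3 stood apart by red cell genes, whose 5 markers summed to 18087 normalised reads there against 168 to 7442 in the other libraries. Among the members it also held the lowest Fzd1, Fzd5, Fzd8, Fzd9, Lgr5, Sfrp1, Sfrp2, Wnt10a and Wnt7b values of all 15 libraries. Member calls that changed without it are given below.

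Compared per length (normalised reads per kb of exon, mean ± SD, n = 5), the levels of the members spanned a wide range, and 1 inhibitor, Sfrp4, was the highest in every group. It stood at 3622 ± 2199 in the 6-month controls, 8414 ± 3315 in the 12-month controls and 10291 ± 5470.0 in the canagliflozin group. A pair of ligands followed in all 3 groups. Wnt4 stood at 959 ± 576, 896 ± 218 and 1047 ± 160.3 in the same order of groups, and Wnt10b at 891 ± 199.5, 1233 ± 617 and 1941 ± 586. In the 6-month controls the 1-SD range of Wnt4 overlapped those of Sfrp4 and of Wnt10b, while the ranges of Sfrp4 and Wnt10b lay apart. Sfrp1 (498 ± 91.9), Wnt6 (470.5 ± 267), Fzd1 (387 ± 147) and Dkk3 (298 ± 38.5) came next in the 6-month controls, each with a range that overlapped that of its neighbour in this order, and the ranges of Sfrp1 and Dkk3 lay apart. Fzd1 was the highest Frizzled per length at 6 months, followed by Fzd2 (143 ± 18.4) and Fzd7 (126 ± 9.92), and Lgr4 (172 ± 38.5) was the highest of the Lgr receptors. Rspo1 (60.2 ± 11.8) exceeded Rspo2 (13.05 ± 3.97) and Rspo3 (10.4 ± 1.78). The lowest member at 6 months was Wnt11, at 3.31 ± 1.19, with a range that overlapped that of Dkk2, and in the canagliflozin group the means of Fzd10 and Fzd9 lay below that of Wnt11. As a share of all members' normalised reads, Sfrp4 took 10.7% to 57.0% per library in the 6-month controls (median 41.7%), 49.4% to 73.3% in the 12-month controls (median 69.2%) and 45.9% to 76.8% in the canagliflozin group (median 63.4%).

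**Figure D1:**
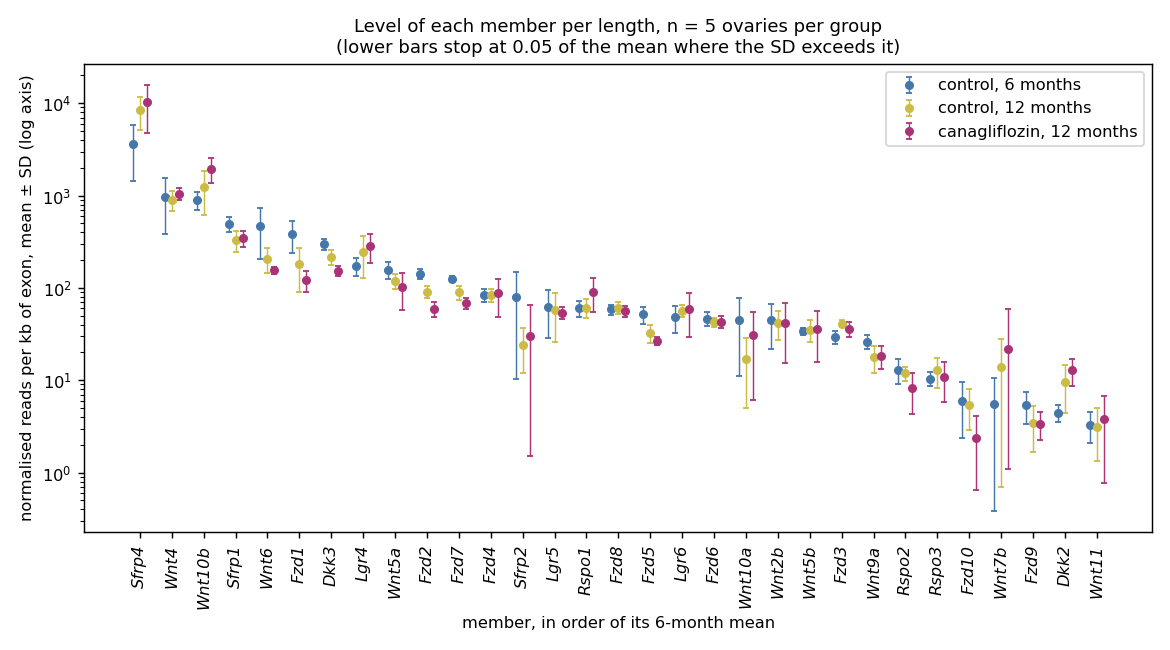
Level of each of the 31 members in normalised reads per kb of exon (log axis), ordered from left to right by the 6-month mean. Points are group means and bars are 1 SD over 5 libraries (6-month controls blue, 12-month controls yellow, canagliflozin purple). Sfrp4 is the highest in every group, with Wnt4 and Wnt10b next.

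With age, the receptors Fzd2, Fzd5 and Fzd7, the ligand Wnt6 and the Dickkopf gene Dkk3 fell, and the receptor Fzd3 rose. The comparison of the 12-month with the 6-month controls asks what age changed in untreated mice. Of 31 members, these 5 were lower at 12 months and 1 was higher at a limma adjusted p under 0.05. Over all 17569 genes tested, 7.01% were lower and 5.4% higher, which sets the background for these counts (16.1% and 3.23% of the members). By family, 3 of 10 Frizzled genes were lower and 1 higher, 1 of 10 Wnt genes was lower, 1 of 2 Dkk genes was lower, and no Rspo, Lgr or Sfrp gene was called by limma. In the Rspo, Lgr and Sfrp families, 0 of 3, 0 of 3 and 2 of 3 had an unadjusted p under 0.05, against 27.4% of all genes. edgeR called 0 of them, and DESeq2 called 1, Sfrp1. The groups did not overlap for 5 members, 4 lower (Fzd1, Fzd2, Fzd5 and Fzd7) and 1 higher (Fzd3), which is 16.1% of the members against 13.7% of all genes and so near the background. The median log2 fold change was -0.10 over the members and 0.0039 over all genes, and over the Frizzled genes alone it was -0.31, with 8 of 10 below 0 (7 of 10 when each library was corrected for its trends with GC content and exon length, an alternative added after the data were seen). With that correction 2 members were called lower and 0 higher. The count of lower members fell to 3 without 12-month control replicate 3 or without 6-month control replicate 2, and the count of higher members to 0 without any of 6 libraries named below for Fzd3. Adjusted p-values are from limma on log2(value + 1), with Benjamini-Hochberg adjustment over all 17569 genes, and fold changes are on that log2 scale with their standard errors.

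In the comparison of canagliflozin with untreated mice of 12 months, which asks what the drug changed at the same age, no member passed. By limma, 0 of 31 members had an adjusted p under 0.05, against 0.00569% of all genes (1 gene). At an unadjusted p under 0.05 there were 6 members (Fzd2, Fzd7, Fzd10, Dkk3, Rspo2 and Wnt10b), 19.4% of the members against 9.2% of all genes. edgeR on the recovered reads called 0 members, and DESeq2 called 1, Fzd2 (log2 fold change -0.62, adjusted p = 0.0249). The groups did not overlap for Fzd2 alone, 3.23% of the members against 1.05% of all genes. The median log2 fold change was -0.04 over the members and -0.0019 over all genes. Leaving out each library in turn gave 0 members each time, while the count over all genes ran from 0 to 37 (37 without canagliflozin replicate 5 and 2 without 12-month control replicate 3). A p above the threshold does not show that the groups were alike, since the standard errors ran from 0.12 to 1.18 log2 units.

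Set against the 6-month controls, the canagliflozin group differed in 10 members. By limma, 7 were lower (Fzd1, Fzd2, Fzd5, Fzd7, Dkk3, Wnt5a and Wnt6), which is 22.6% against 14.9% of all genes, and 3 were higher (Dkk2, Sfrp4 and Wnt10b), which is 9.68% against 13.5% of all genes. The groups did not overlap for 8 members, 1 higher and 7 lower, 25.8% of the members against 18.5% of all genes. The 3 comparisons share groups: each of them has 1 group in common with each of the others, so their values are only set side by side, and none of them is independent support for another. Age and drug differ together in this last comparison. The count of higher members fell to 1 when canagliflozin replicate 3 or 6-month control replicate 5 was left out.

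**Figure D2:**
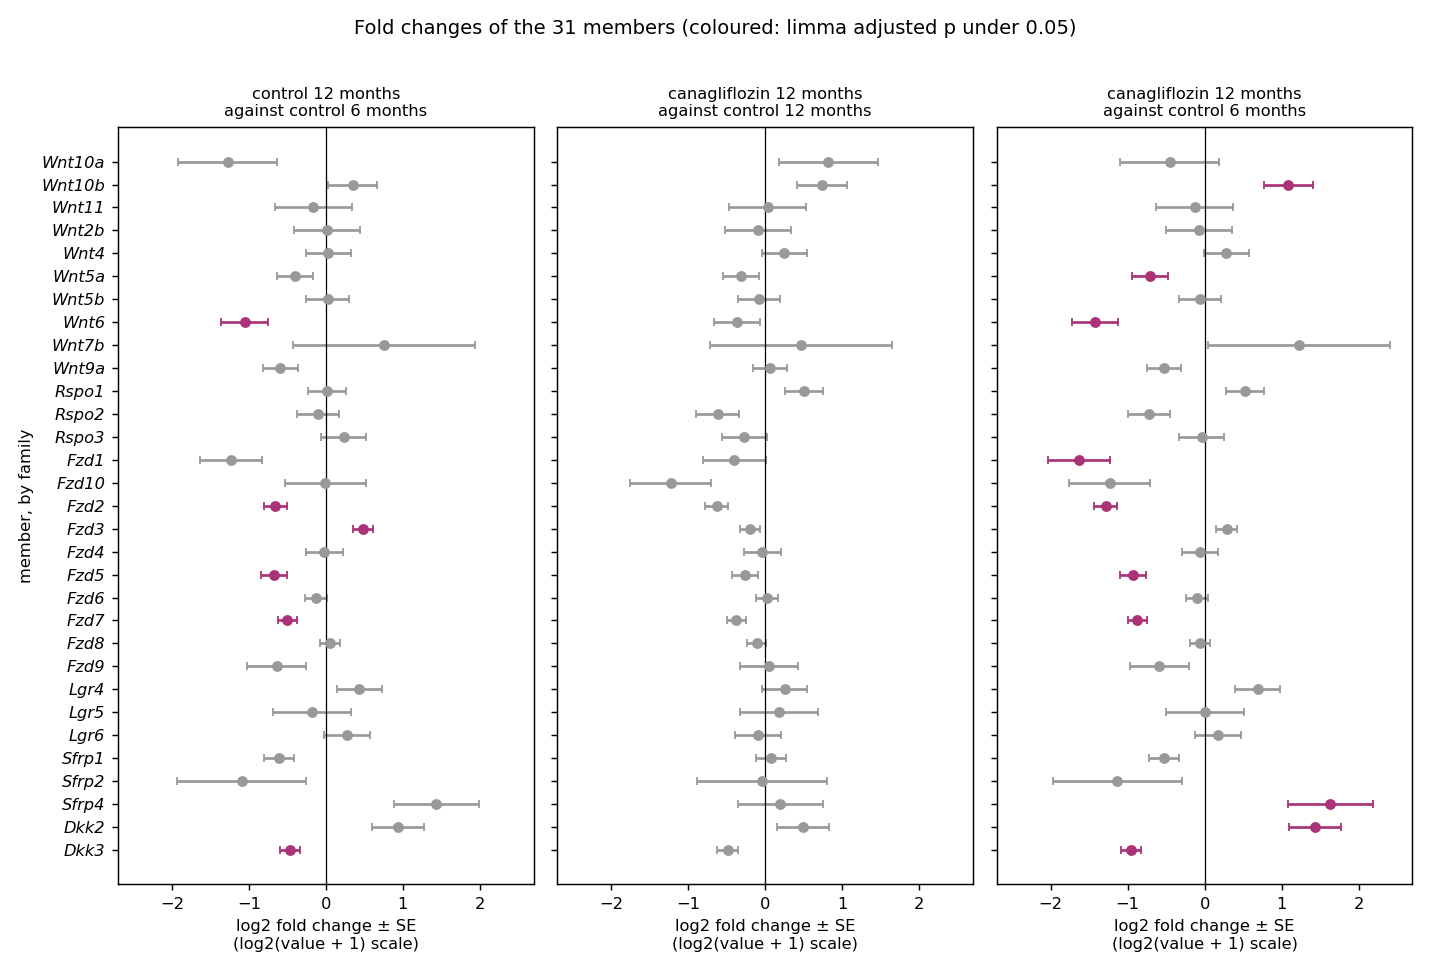
Log2 fold change ± SE of the 31 members, by family, in the 3 comparisons (on the log2(value + 1) scale, 5 libraries per group). Members with a limma adjusted p under 0.05 are coloured: 6 with age, none with the drug and 10 for canagliflozin against the 6-month controls.

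Promoter sequences are shown for 3 members that fell with age and for Dkk2, which was higher in the canagliflozin group than at 6 months. RefSeq (GRCm38.p6) gave a promoter for 18 of the 31 members, 250 bases before to 50 after the start of the gene, written 5′ to 3′ on the gene's strand. Capitals mark any match, on either strand, to the TCF/LEF core CTTTGAT or CTTTGAA, the GC box GGGCGG, the CCAAT box CCAAT, the TATA box TATAAA or the NR5A half-site AAGGTCA. Adjoining capitals can belong to overlapping matches.
Fzd7, chr1:59481897-59482196, plus strand: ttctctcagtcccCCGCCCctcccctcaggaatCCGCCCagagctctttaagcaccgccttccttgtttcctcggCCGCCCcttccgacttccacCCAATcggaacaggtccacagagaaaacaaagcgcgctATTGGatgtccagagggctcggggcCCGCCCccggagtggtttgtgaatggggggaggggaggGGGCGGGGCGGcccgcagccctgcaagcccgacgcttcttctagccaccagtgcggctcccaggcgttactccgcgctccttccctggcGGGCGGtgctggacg
Fzd5, chr1:64737701-64738000, minus strand: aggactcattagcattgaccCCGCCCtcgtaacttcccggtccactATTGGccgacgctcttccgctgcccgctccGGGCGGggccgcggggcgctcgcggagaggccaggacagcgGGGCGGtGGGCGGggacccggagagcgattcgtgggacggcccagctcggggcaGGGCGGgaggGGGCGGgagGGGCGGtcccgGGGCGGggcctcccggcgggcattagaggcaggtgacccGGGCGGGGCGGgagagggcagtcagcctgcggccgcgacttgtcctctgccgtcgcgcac
Wnt6, chr1:74771642-74771941, plus strand: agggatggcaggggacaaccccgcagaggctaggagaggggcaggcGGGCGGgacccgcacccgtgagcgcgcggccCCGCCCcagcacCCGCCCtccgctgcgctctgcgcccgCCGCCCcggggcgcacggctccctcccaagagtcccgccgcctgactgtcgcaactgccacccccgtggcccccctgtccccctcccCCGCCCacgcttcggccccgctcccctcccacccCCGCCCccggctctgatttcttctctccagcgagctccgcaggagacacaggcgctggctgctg
Dkk2, chr3:132085042-132085341, plus strand: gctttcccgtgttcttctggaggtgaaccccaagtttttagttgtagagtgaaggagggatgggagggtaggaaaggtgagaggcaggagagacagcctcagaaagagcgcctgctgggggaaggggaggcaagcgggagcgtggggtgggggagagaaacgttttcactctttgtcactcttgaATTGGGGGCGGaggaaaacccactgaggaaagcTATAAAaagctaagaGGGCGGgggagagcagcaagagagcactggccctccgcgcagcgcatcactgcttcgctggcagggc
The GC box occurred 7 times in the Fzd7 promoter, 10 times in that of Fzd5, 6 times in that of Wnt6 and 2 times in that of Dkk2. The CCAAT box occurred 2 times in Fzd7 and 1 time each in Fzd5 and Dkk2, and Dkk2 alone of the 4 held a TATA box, from base -32. Of the other called members with a promoter, not shown, Wnt10b held 0 matches to any of these motifs and Fzd1 held only 1 TATA box. Among the 18 member promoters, 13 held a GC box (72.2%, against 35.9% of 27018 promoters of the same length), 6 a CCAAT box (33.3% against 37.9%) and 3 a TATA box (16.7% against 14.2%). Every one of the 18 was richer in G and C, at 54.0% (Fzd1) to 84.3% (Wnt4), than the median promoter (52.7%). The GC box consists of G and C only, and the part of base content in its share was not tested. The TCF/LEF core CTTTGAT was found in 1 (Wnt11; 3.72% of all promoters), and CTTTGAA (5.27% of all) and AAGGTCA (4.66% of all) in none. A match is a description of letters, and these windows leave out more distant elements.

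Among the ligands, Wnt6 fell with age. It had 569, 1404, 1884, 640.1 and 659 normalised reads at 6 months (replicates 1 to 5, an order kept for all values below), 512, 612, 335, 526 and 295 at 12 months without the drug and 381, 304, 335, 335 and 349 with canagliflozin. Replicates 2 and 3 stood far above the other 6-month controls, the control groups overlapped, and the canagliflozin libraries lay close together below all 6-month controls. The log2 fold change was -1.06 ± 0.30 with age (limma adjusted p = 0.032), -0.37 ± 0.30 with the drug (adjusted p = 0.703) and -1.42 ± 0.30 against 6 months (adjusted p = 0.00298). The age call was lost when 6-month control replicates 2 or 3 or 12-month control replicates 3 or 5 was left out (adjusted p 0.0633 to 0.0848), and with only the 2 groups compared (0.0741).

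Wnt5a, the best-known ligand of the branch that does not use beta-catenin, had 1307, 1083, 1647, 1065 and 1088 normalised reads at 6 months, 815, 930.4, 771, 961 and 1217 at 12 months without the drug and 509, 1332, 485, 924 and 747 with canagliflozin. The groups overlapped, with canagliflozin replicates 1 and 3 the lowest of all libraries and replicate 2 above 4 of the 6-month controls. Its log2 fold change was -0.40 ± 0.24 with age (adjusted p = 0.299) and -0.32 ± 0.24 with the drug (adjusted p = 0.683), and it passed only against 6 months (-0.71 ± 0.24, adjusted p = 0.0335). Leaving out 6-month control replicates 1 or 3 or canagliflozin replicates 1, 3 or 5 lost that call (adjusted p 0.0501 to 0.0891). It was also lost by edgeR on the recovered reads (0.0565) and by edgeR on 12 of the libraries (0.132). The same held with only the 2 groups compared (0.0613) and with the replicate block, that is the replicate number as a term of the fit (0.0547). The 12 libraries leave out canagliflozin replicates 4 and 5 and 6-month control replicate 5, whose size factors lay closest to 1. That fit therefore also compares fewer mice. Wnt10b, a ligand known for its part in fat and bone, had 3139, 2918, 3133, 3932 and 2033 at 6 months, 7042, 2184, 2351, 5579.7 and 3814 at 12 months without the drug and 3479, 6527, 8658, 7965 and 6385 with canagliflozin. The 12-month controls were split, with replicates 1, 4 and 5 above replicates 2 and 3, and 4 of 5 canagliflozin libraries exceeded every 6-month control. On the log2 scale the fold change was 0.35 ± 0.32 with age (adjusted p = 0.521), 0.74 ± 0.32 with the drug (unadjusted p = 0.0356, adjusted p = 0.518) and 1.09 ± 0.32 against 6 months (adjusted p = 0.0201). The last call was lost when 6-month control replicate 5 or canagliflozin replicate 3 was left out (adjusted p 0.0521 to 0.0536), and by edgeR on the 12 libraries (0.103).

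Wnt4, which acts in the developing ovary and in the female reproductive tract, had 1974, 3602, 8191, 2919.9 and 3433 normalised reads at 6 months, 4459, 4626, 3589.8, 3800.5 and 2323 at 12 months without the drug and 4364, 4896, 3328, 5039 and 4336 with canagliflozin. Replicate 3 of the 6-month controls was far above all other libraries, and otherwise the groups overlapped. No comparison passed (log2 fold change 0.03 ± 0.29 with age, adjusted p = 0.96, and 0.25 ± 0.29 with the drug, adjusted p = 0.797). The other 6 ligands were not called in any comparison. Wnt2b ranged from 58.4 to 371 normalised reads over the 15 libraries, Wnt5b from 55.98 to 185 and Wnt9a from 41.1 to 106. Wnt10a, a ligand of skin and tooth development, ranged from 12.9 to 221, Wnt11 from 2.98 to 34.1, and Wnt7b from 2.75 to 433, the widest range in relative terms of all members. Wnt9a had an unadjusted p of 0.0179 with age (log2 fold change -0.59 ± 0.22, adjusted p = 0.0981).

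No R-spondin and no Lgr receptor was called by the main limma fit in any comparison. At an unadjusted p under 0.05 there were 0 of 6 with age, 1 with the drug (Rspo2) and 3 against 6 months (Rspo1, Rspo2 and Lgr4). Over all genes the shares were 27.4%, 9.2% and 40.5% in the same order. edgeR called 0 of the 6, and DESeq2 called 1 (Lgr4 against 6 months). Rspo1, which with Wnt4 directs ovary development, had 106, 123, 82.8, 142 and 129.9 normalised reads at 6 months, 98.3, 156, 129, 122 and 86.8 at 12 months without the drug and 275, 112, 209, 110.0 and 172 with canagliflozin. Canagliflozin replicates 1, 3 and 5 exceeded every control library, and replicates 2 and 4 lay within the control range. The fit gave a log2 fold change of 0.02 ± 0.24 with age (adjusted p = 0.975) and 0.50 ± 0.24 with the drug (unadjusted p = 0.0565, adjusted p = 0.548). The 8 surface epithelium markers were highest in the same 3 libraries, with sums of 3381, 3831 and 3092 normalised reads in canagliflozin replicates 1, 3 and 5, against 1139 to 2515 in the other 12. None of the 8 was at 0 in any library, their median log2 fold change with the drug was 0.69 (0 called by limma, edgeR or DESeq2, and 3 at an unadjusted p under 0.05), and their part in the Rspo1 values was not tested. Rspo2, an activator of the pathway that oocytes are known to make, ranged over 47.7 to 97.5 in the 6-month controls, 44.9 to 69.8 in the 12-month controls and 23.8 to 74.1 in the canagliflozin group (drug log2 fold change -0.62 ± 0.28, unadjusted p = 0.0395, adjusted p = 0.53). Rspo3 ranged over 24.8 to 39.9, 25.8 to 59.2 and 17.8 to 59.5 in the same order of groups. Against 6 months the Rspo2 log2 fold change of -0.72 ± 0.28 did not pass (limma adjusted p = 0.061). Rspo2 was called there without canagliflozin replicate 5 (adjusted p = 0.0092) or without 6-month control replicate 3 (0.0488).

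Lgr5, a receptor of R-spondins and itself a target of beta-catenin, had 587, 873, 208, 1057 and 433 normalised reads at 6 months, 873, 394, 128, 852 and 706 at 12 months without the drug and 545, 463, 689, 553 and 516 with canagliflozin. Both control groups spanned a several-fold range, from a low library (replicate 3 in each) to highs above all canagliflozin libraries, and the canagliflozin libraries lay close together in between. The log2 fold change was -0.18 ± 0.51 with age (adjusted p = 0.861), 0.18 ± 0.51 with the drug (adjusted p = 0.922) and 0.00 ± 0.51 against 6 months (adjusted p = 0.996). Lgr4, the broadly expressed receptor of the group, had ranges of 749 to 1279 in the 6-month controls, 800.4 to 2559.6 in the 12-month controls and 1082 to 2452 in the canagliflozin group. Its log2 fold change of 0.69 ± 0.29 against 6 months did not pass (adjusted p = 0.0901), and it did with the correction for GC content and length (0.76, adjusted p = 0.0496). Lgr4 also passed with only the 2 groups compared (0.0444) and without 12-month control replicate 1 (0.0478). Lgr6, known from stem cells of the skin, ranged over 220.1 to 509.5, 283 to 442 and 206 to 637, with canagliflozin replicates 1 and 3 the highest of all libraries and replicates 2 and 4 among the lowest 3.

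The Frizzled genes, receptors with an extracellular Wnt-binding domain and several membrane passes, held 4 of the 6 calls with age. Fzd2, a receptor for Wnt5a among other ligands, had 573, 483, 483, 463 and 618 normalised reads at 6 months, 258, 391, 349, 355 and 316 at 12 months without the drug and 246, 231, 145, 222 and 240.2 with canagliflozin. All 3 groups lay apart: every 12-month control was below every 6-month control, and every canagliflozin library was below every 12-month control. Its log2 fold change was -0.65 ± 0.15 with age (limma adjusted p = 0.00937), -0.63 ± 0.15 with the drug (adjusted p = 0.25, unadjusted p = 0.000625) and -1.28 ± 0.15 for canagliflozin against 6 months (adjusted p = 4.61e-05). Its age call was lost with the correction for GC content and length (log2 fold change -0.48, adjusted p = 0.0578).

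Fzd7, often studied in stem and progenitor cells, had 537, 518, 569, 593 and 632 normalised reads at 6 months, 367, 469.6, 317, 487 and 394 at 12 months without the drug and 322, 317, 262, 284 and 372 with canagliflozin. Every 12-month library of either group was below every 6-month library, while the 12-month groups overlapped. On the log2 scale the fold change was -0.50 ± 0.12 with age (adjusted p = 0.0142), -0.37 ± 0.12 with the drug (adjusted p = 0.462) and -0.87 ± 0.12 against 6 months (adjusted p = 0.000174). Its age call too was lost with the correction for GC content and length (-0.33, adjusted p = 0.105). Fzd5, known for its part in yolk sac vessels and in the gut, had 323, 453, 425, 287 and 301 at 6 months, 276, 214, 151, 213 and 272 at 12 months without the drug and 167, 191, 182, 211 and 172 with canagliflozin. Here the 12-month controls lay below all 6-month libraries, and the canagliflozin libraries lay within the range of the 12-month controls. The log2 fold change of Fzd5 was -0.67 ± 0.17 with age (adjusted p = 0.0147), -0.26 ± 0.17 with the drug (adjusted p = 0.634) and -0.93 ± 0.17 against 6 months (adjusted p = 0.000871). Its age call held with the correction (-0.54, adjusted p = 0.0443).

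Fzd1, the highest Frizzled per length, had 1041.8, 2251.2, 2305.4, 1448.1 and 1078.7 normalised reads at 6 months, 1041.6, 1003.2, 215.7, 1017.3 and 508.9 at 12 months without the drug and 623.1, 490.2, 298.9, 531.3 and 600.5 with canagliflozin. The 6-month libraries were split, with replicates 2 and 3 above the rest, and the lowest of them lay only just above the highest 12-month control. With age the log2 fold change of -1.23 ± 0.41 did not pass (limma adjusted p = 0.0624), and by DESeq2 on the recovered reads it did (-1.10, adjusted p = 0.0159). It was -0.40 ± 0.41 with the drug (adjusted p = 0.76) and -1.63 ± 0.41 against 6 months (adjusted p = 0.00871).

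Fzd3, a receptor of planar polarity and axon guidance, was the only member called higher with age by limma (edgeR and DESeq2 also called Dkk2). It had 371, 341, 303, 437 and 448 normalised reads at 6 months, 548, 519, 453, 578 and 536 at 12 months without the drug and 421, 521, 404, 383 and 593 with canagliflozin. The control groups were barely apart, and the canagliflozin libraries overlapped both. The fit gave a log2 fold change of 0.48 ± 0.13 with age (adjusted p = 0.0271), -0.20 ± 0.13 with the drug (adjusted p = 0.659) and 0.29 ± 0.13 against 6 months (adjusted p = 0.123). The age call was lost when 6-month control replicates 1, 2 or 3 or 12-month control replicates 1, 4 or 5 was left out (adjusted p 0.0505 to 0.0729), and with the correction for GC content and length (0.24, adjusted p = 0.102).

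Fzd4, whose loss in mice is known to impair the corpus luteum, had 684, 457, 523, 550.2 and 623 normalised reads at 6 months, 508, 472, 643, 511 and 663 at 12 months without the drug and 343, 946, 347, 536 and 753 with canagliflozin. The spread was widest in the canagliflozin group, where replicate 2 was the highest and replicates 1 and 3 the lowest of all 15 libraries. The log2 fold change was -0.02 ± 0.24 with age and -0.04 ± 0.24 with the drug (adjusted p = 0.969 and 0.97). The 7 luteal markers summed to 335085 normalised reads in canagliflozin replicate 2, the highest of the 15, and to 137035 in replicate 1, the lowest, but to 202415 in replicate 3, above 7 other libraries, and to 308261 in replicate 4, whose Fzd4 value lay mid-range. Their part in the Fzd4 values was not tested. Of the other Frizzled genes, Fzd6 (161 to 251, 176 to 225 and 169.7 to 257 normalised reads in the 6-month controls, the 12-month controls and the canagliflozin group) and Fzd8 (286 to 404, 285 to 419 and 290.2 to 404) overlapped in all groups. Fzd9 (6.78 to 17.5, 3.67 to 13.4 and 3.95 to 10.95) and Fzd10 (4.74 to 35.6, 8.59 to 29.5 and 1.97 to 15.8) were near the level filter. Fzd10 had the log2 fold change farthest from 0 with the drug among the 31 members (-1.23 ± 0.53, unadjusted p = 0.0333, adjusted p = 0.515).

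**Figure D3:**
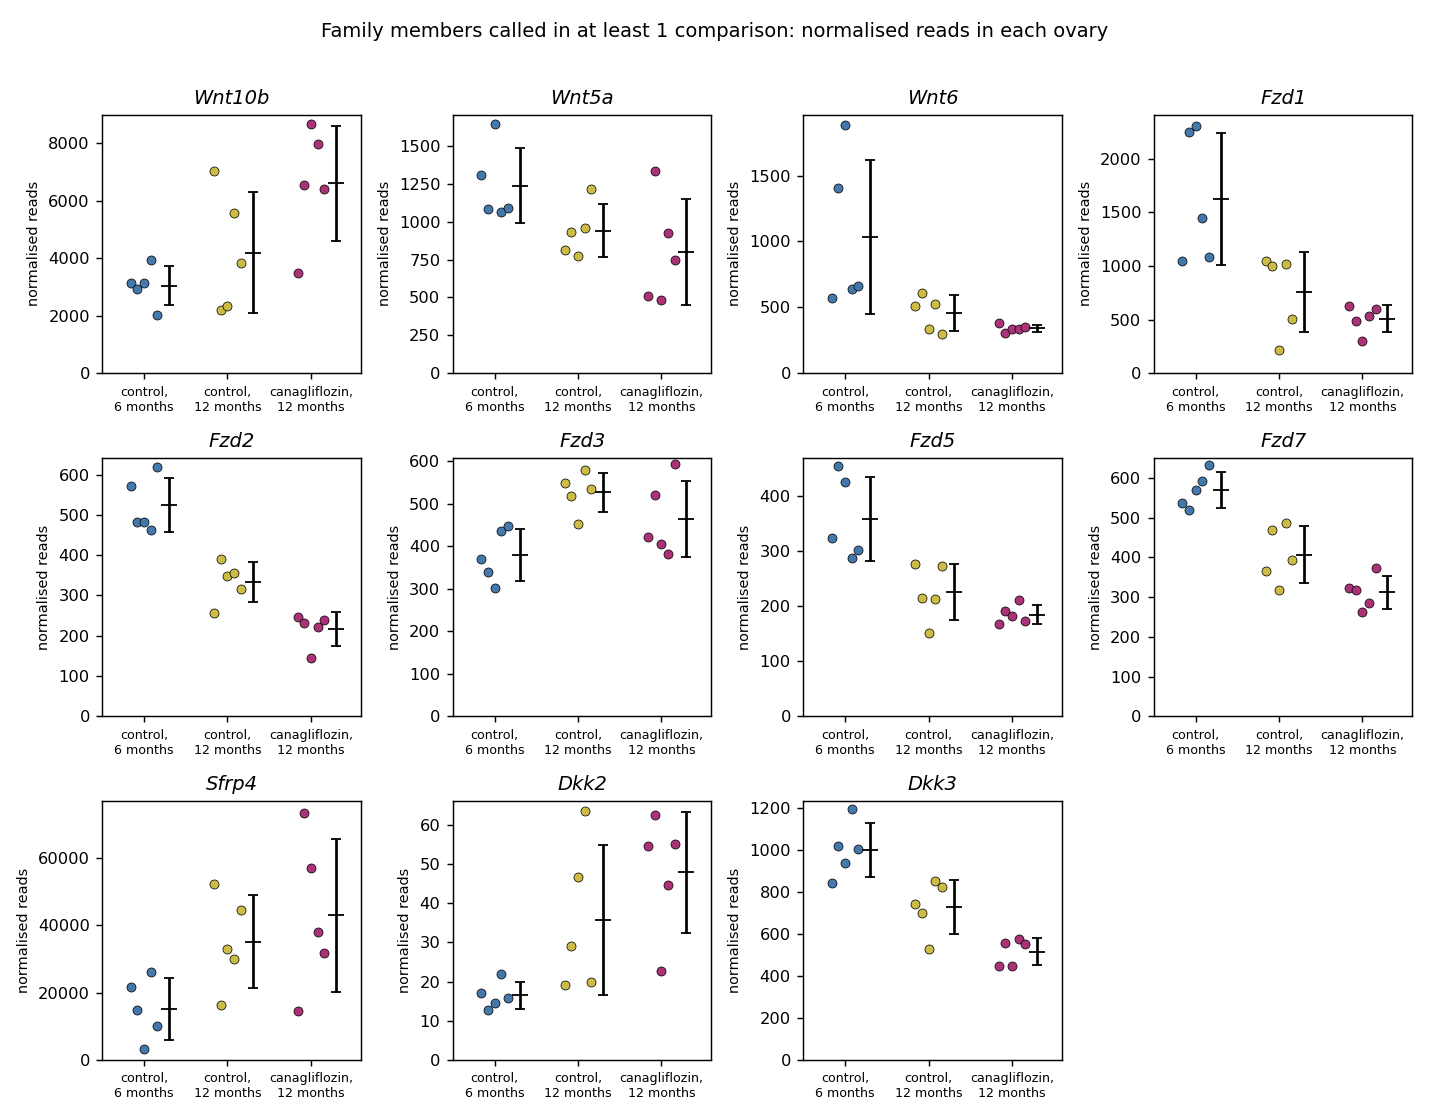
Normalised reads in each of the 15 libraries for the 11 members with a limma adjusted p under 0.05 in at least 1 comparison. Points are libraries in order of replicate number, and the bar beside them is the group mean ± SD (n = 5). Each axis starts at 0. Fzd2 steps down from group to group without overlap, while Wnt6 and Fzd1 at 6 months and Sfrp4 in every group are widely spread.

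Some cell type markers also differed with age. Over all marker lists, limma called 12 of the 68 markers tested with age, while 12.4% of all genes were called and 7.01% were lower. The sums of the next 3 lists overlapped between the control groups. The 6 stroma markers summed to 19821 to 28900.0 normalised reads in the 6-month controls, 11125 to 21404 in the 12-month controls and 11059.6 to 16736 in the canagliflozin group, and 2 of 6 (Nr2f2 and Col1a1) were lower with age. The 6 markers of smooth muscle and pericytes summed to 11037 to 15003, 6198 to 11388 and 5411 to 12146, and 2 of 6 (Myh11 and Notch3) were lower with age. The 5 macrophage markers summed to 1246 to 1741, 472 to 1342 and 539 to 931, with 2 of 5 (Adgre1 and Csf1r) lower with age. None of these lists had a marker at 0 in any library. In the other lists the calls with age were Nr5a2 higher of 8 granulosa markers, Prlr higher of 7 luteal, Cdh5 lower of 6 endothelial and Adipoq, Cfd and Fabp4 higher of 4 fat markers tested (Adipoq and Cfd were below 10 in every 6-month control, so the level filter favoured their calls), with none in the theca, surface epithelium, oocyte, oviduct and red cell lists. With the drug 0 of the 68 markers tested were called by limma, edgeR or DESeq2, and 11 had an unadjusted p under 0.05 (9.2% of all genes did). The markers' part in the members' changes was not tested. Over all genes, GC content also moved with the calls. Genes higher with age had a median transcript GC content of 43.7%, those lower 54.1% and those not called 49.6%. Fzd3, which rose, has 40.3% GC and 12804 bases of exon. The 5 members that fell have 51.0% to 61.3% GC (median 53.9%), within the 44.1% to 63.8% of the 25 members not called (median 52.6%). With the correction for GC content and length, Wnt6 and Fzd5 were still called with age, and Fzd2, Fzd3, Fzd7 and Dkk3 were not. All 10 members called for canagliflozin against 6 months were still called.

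Among the secreted inhibitors, Sfrp4, the highest member, varied widely within each group. It had 21674, 14807, 3069, 26195 and 9930.1 normalised reads at 6 months, 52205, 16291, 32837, 29909 and 44559 at 12 months without the drug and 14588, 73473, 57201, 38114 and 31653 with canagliflozin. Of the untreated 12-month libraries 4 of 5, and of the canagliflozin libraries 4 of 5, exceeded every 6-month control, and 1 library of each group lay within the 6-month range. The log2 fold change of 1.44 ± 0.55 with age did not pass (unadjusted p = 0.021, limma adjusted p = 0.108). It was 0.20 ± 0.55 with the drug (adjusted p = 0.922) and 1.63 ± 0.55 against 6 months (adjusted p = 0.0396). The last call was lost when 6-month control replicates 2, 3 or 5 or canagliflozin replicates 2, 3, 4 or 5 was left out (adjusted p 0.051 to 0.091), with no filter (0.0653), with only the 2 groups compared (0.07), with the replicate block (0.0774) and by edgeR on the 12 libraries (0.107). Sfrp1, which binds Wnt ligands outside the cell, ranged over 1729 to 2639.5 in the 6-month controls, 935 to 1863 in the 12-month controls and 967 to 1712 in the canagliflozin group. With age its log2 fold change of -0.61 ± 0.19 lay just above the threshold (adjusted p = 0.0518), and against 6 months likewise (-0.53 ± 0.19, adjusted p = 0.0517), where the groups did not overlap. Both differences passed by DESeq2 (adjusted p = 0.0236 and 0.0322), with a filter of 50 (0.0453 and 0.0476) and with only the 2 groups compared (0.0467 and 0.0416), and the second also by edgeR (0.0486). Sfrp1 was also called with age once any 1 of 4 libraries was dropped, namely replicates 4 and 5 of the 12-month controls, replicate 5 of the canagliflozin group and replicate 1 of the 6-month controls (adjusted p 0.0247 to 0.0476). It was called against 6 months once replicate 3 or 4 of the 12-month controls, or replicate 1 or 5 of the 6-month controls, was dropped (adjusted p 0.0275 to 0.0478). Sfrp2 ranged over 15.9 to 358, 15.6 to 76.9 and 22.7 to 201, and no comparison passed.

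The Dickkopf genes differed from their 6-month levels in opposite directions. Dkk3, a family member whose place in Wnt signalling is less settled, had 843, 1017, 939, 1195 and 1003 normalised reads at 6 months, 745, 699, 526, 853 and 823 at 12 months without the drug and 448, 556, 445, 574 and 553 with canagliflozin. The control groups overlapped by 1 library, and every canagliflozin library was below every 6-month control. Its log2 fold change was -0.47 ± 0.13 with age (adjusted p = 0.0291), -0.49 ± 0.13 with the drug (unadjusted p = 0.00186, adjusted p = 0.367) and -0.95 ± 0.13 against 6 months (adjusted p = 0.000153). The age call was lost when 6-month control replicates 2, 4 or 5 or 12-month control replicates 2 or 3 was left out (adjusted p 0.0551 to 0.0732), and with the correction for GC content and length (-0.37, adjusted p = 0.0904) or by edgeR on the 12 libraries (0.0693). Dkk2, which binds Lrp5 and Lrp6, was low in level, at 17.1, 12.7, 14.6, 22.04 and 15.9 normalised reads at 6 months, 19.1, 29.1, 46.8, 63.6 and 19.97 at 12 months without the drug and 54.8, 62.6, 22.7, 44.6 and 55.05 with canagliflozin. Every canagliflozin library was above every 6-month control, while the 12-month controls ranged from the 6-month levels to the highest value of all. The log2 fold change of 0.94 ± 0.34 with age did not pass by limma (adjusted p = 0.0804) and passed by edgeR on the recovered reads (1.11, adjusted p = 0.0490). It was 0.49 ± 0.34 with the drug (adjusted p = 0.66) and 1.43 ± 0.34 against 6 months (adjusted p = 0.00526).

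**Figure D4:**
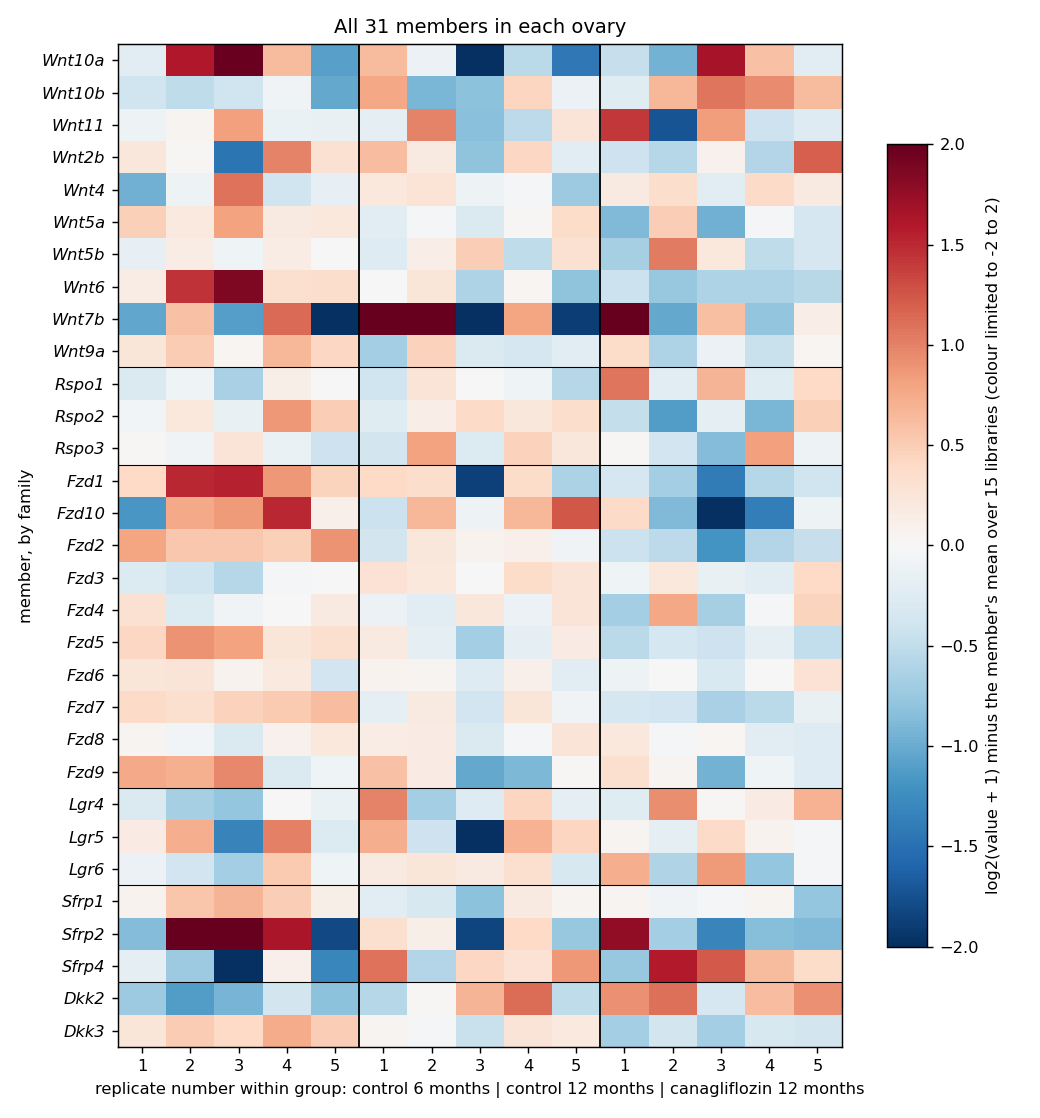
All 31 members in each of the 15 libraries, as log2(value + 1) minus the member's mean over the libraries (red above, blue below, limited to -2 to 2). Columns are libraries by group and replicate number, and rows are members by family. Fzd2 and Fzd7 are red in every 6-month control and blue in every canagliflozin library, while Wnt7b and Sfrp2 vary within each group.

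The remaining genes of the pathway were read from 5 fixed lists of 71 genes, of which 63 were tested. With age, 14 were lower and 5 higher (22.2% and 7.94%, against 7.01% and 5.4% of all genes). With the drug, 0 of the 63 were called by limma, edgeR or DESeq2, and 3 had an unadjusted p under 0.05 (9.2% of all genes did). Among 15 co-receptors and other surface receptors measured, 5 were lower with age and none higher, with a median log2 fold change of -0.32. Lrp5, the co-receptor paired with Frizzled, fell (-0.83 ± 0.11, adjusted p = 0.000407), from 1693 ± 103 normalised reads in the 6-month controls to 960.4 ± 165 in the 12-month controls (mean ± SD, n = 5), and stood at 779.9 ± 81.95 in the canagliflozin group. Ror2, a receptor for Wnt5a, fell (-0.94 ± 0.22, adjusted p = 0.0101), as did the planar polarity genes Ptk7 (-0.54 ± 0.13, adjusted p = 0.0136) and Celsr2 (-0.44 ± 0.13, adjusted p = 0.0347), and Kremen1, a partner of Dkk proteins (-0.52 ± 0.12, adjusted p = 0.0104). The other co-receptor, Lrp6, had a log2 fold change of 0.20 ± 0.08 (adjusted p = 0.107). Of 8 genes of ligand secretion and other secreted modulators, Apcdd1, a surface inhibitor of Wnt signalling, was lower (-0.78 ± 0.17, adjusted p = 0.00707).

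Inside the cell, 5 of 20 cytoplasmic genes were lower with age and 3 higher (25% and 15%, against 7.01% and 5.4% of all genes), with a median log2 fold change of -0.09. The destruction complex that degrades beta-catenin gave calls in both directions. Its scaffolds Axin1 (-0.37 ± 0.10, adjusted p = 0.0207) and Axin2 (-1.06 ± 0.21, adjusted p = 0.00421) were lower, whereas its scaffold Apc (0.51 ± 0.13, adjusted p = 0.016) and its kinase Gsk3b (0.32 ± 0.10, adjusted p = 0.0486) were higher. Tnks, which marks axins for destruction, was higher (0.57 ± 0.10, adjusted p = 0.00192), and Dvl2 (-0.47 ± 0.08, adjusted p = 0.00141) and Nkd1 (-0.60 ± 0.18, adjusted p = 0.0389), which act just below Frizzled, and the kinase gene Csnk1d (-0.29 ± 0.07, adjusted p = 0.0167) were lower. Of 14 nuclear genes, 14.3% were lower and 14.3% higher. The beta-catenin partners Bcl9 (-0.30 ± 0.08, adjusted p = 0.0152) and Bcl9l (-0.94 ± 0.11, adjusted p = 0.000215) were lower, and Pygo1 (0.47 ± 0.12, adjusted p = 0.014) and the chromatin remodeller Chd8 (0.30 ± 0.08, adjusted p = 0.019) were higher. Several of these age calls were lost when 1 library was left out: Celsr2 without 6-month control replicates 1, 2 or 5 or 12-month control replicates 1, 2, 3 or 4 (adjusted p 0.0517 to 0.0915); Axin1 without 6-month control replicates 4 or 5 or 12-month control replicate 3 (adjusted p 0.0524 to 0.0566); Nkd1 without 6-month control replicates 2, 3, 4 or 5 or 12-month control replicates 1, 3, 4 or 5 (adjusted p 0.0535 to 0.0991). Gsk3b was lost without 6-month control replicates 2, 3, 4 or 5 or 12-month control replicates 1, 2, 4 or 5 or canagliflozin replicates 1 or 4 (adjusted p 0.052 to 0.117). With the correction for GC content and length, 9 of the 19 calls with age over the 5 lists were lost (Ptk7, Celsr2, Axin1, Apc, Csnk1d, Nkd1, Bcl9, Chd8 and Myc). The same correction also gained calls, such as Dvl1 higher with age (0.41, adjusted p = 0.0249). The corrected cytoplasmic list held 3 higher and 3 lower genes with age. With age, Celsr2 and Gsk3b were also lost with no filter, Celsr2 and Nkd1 with only the 2 groups compared, and Ptk7, Celsr2, Gsk3b, Csnk1d, Nkd1 and Chd8 by edgeR on the 12 libraries.

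Genes used as readouts of beta-catenin activity were all below 0 with age. All 14 measured targets had a negative log2 fold change (8698 of 17569 genes overall), with a median of -0.52, and 4 were called lower (28.6%, against 7.01% of all genes): Axin2, Nkd1, Apcdd1 and Myc (-0.79 ± 0.24, adjusted p = 0.0445). Axin2, the most direct of these readouts, stood at 843 ± 210.0 normalised reads in the 6-month controls, 409.5 ± 117 in the 12-month controls and 342 ± 78.6 in the canagliflozin group (mean ± SD, n = 5). The Myc call was lost without 6-month control replicates 1, 2, 3, 4 or 5 or 12-month control replicates 1, 3 or 5 or canagliflozin replicate 3 (adjusted p 0.0547 to 0.103), by edgeR (0.0545, so that edgeR called 3 of the 14), by edgeR on the 12 libraries (0.0707), with no filter (0.0586) and with the replicate block (0.084). With the correction for GC content and length 13 of 14 stayed below 0 (median -0.44), and Axin2 and Apcdd1 were called. With the drug 0 of the 14 were called by limma, edgeR or DESeq2, 0 had an unadjusted p under 0.05, and 12 had a negative log2 fold change (median -0.20). Over all genes 8850 of 17569 were negative with the drug, and by edgeR or DESeq2 13 of the 14 targets were. Against 6 months, 8 of the 14 were lower in the canagliflozin group (57.1%, against 14.9% of all genes). They were Axin2 (-1.29 ± 0.21, adjusted p = 0.000446), Notum, an enzyme that inactivates Wnt ligands (-1.47 ± 0.36, adjusted p = 0.00709), Tnfrsf19 (-1.25 ± 0.30, adjusted p = 0.00611), Apcdd1 (-1.11 ± 0.17, adjusted p = 0.000314), Myc, Nkd1, Znrf3 and Tcf7. Notum passed the level filter mainly through the 6-month controls (11.4 to 22.7 normalised reads there and 4.47 to 7.01 in the canagliflozin group), so the filter favoured its call, which was also lost by edgeR on the 12 libraries (adjusted p = 0.054). The Tcf7 call (-0.45 ± 0.14, adjusted p = 0.0256) was lost without 6-month control replicates 2, 3 or 4 or canagliflozin replicates 2, 3 or 4 (adjusted p 0.0536 to 0.0649). Lgr5, which is both a member and a target, was not called. The targets Axin2, Nkd1, Notum, Apcdd1, Lef1, Tcf7, Znrf3 and Rnf43 also stand in the other lists, so their calls are not separate from those given there.

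Over all 5 lists, 23 of 63 genes were lower and 5 higher in the canagliflozin group than in the 6-month controls (36.5% and 7.94%, against 14.9% and 13.5% of all genes). Lower were, among the surface receptors, Lrp5, Ror2, Ptk7, Kremen1, Znrf3, Vangl2 and Celsr2, with log2 fold changes from -1.36 (Ror2) to -0.60 (Vangl2). Among the cytoplasmic genes Dvl2, Axin1, Axin2, Csnk1d, Ctnnb1, Ctnnbip1 and Nkd1 were lower, and Dvl1 (0.48 ± 0.12, adjusted p = 0.00647) and Tnks were higher. Ctnnb1, which encodes beta-catenin itself, had a log2 fold change of -0.47 ± 0.13, adjusted p = 0.0163. Among the nuclear genes Tcf7, Bcl9, Bcl9l, Tle1 and Tle4 were lower, and Pygo1, Tle2 and Chd8 higher; Tle proteins act as co-repressors of TCF/LEF factors. The calls of Ctnnbip1, Tcf7, Pygo1, Tle1, Tle2 and Tle4 each depended on single libraries: Ctnnbip1 without 6-month control replicates 1, 2 or 3 or canagliflozin replicates 1 or 5 (adjusted p 0.054 to 0.0716); Pygo1 without 6-month control replicates 1, 3 or 5 or canagliflozin replicates 1 or 4 (adjusted p 0.0566 to 0.0853). They were also lost for Tle1 without 6-month control replicates 4 or 5 (adjusted p 0.0537 to 0.0577), for Tle2 without 6-month control replicates 2, 3 or 4 or canagliflozin replicates 2, 3 or 5 (adjusted p 0.0538 to 0.0695) and for Tle4 without 6-month control replicate 4 (adjusted p 0.0589). With the correction for GC content and length, Ctnnb1 (-0.34, adjusted p = 0.0535), Ctnnbip1, Tcf7 and Tle1 were lost. Calls were gained too, such as Gsk3b higher (0.30, adjusted p = 0.00871), and the corrected cytoplasmic list held 4 higher and 6 lower genes. Ctnnbip1 was also lost with no filter, Pygo1 with only the 2 groups compared and Tle2 with the replicate block, and Vangl2, Ctnnbip1, Tcf7, Pygo1, Tle1 and Tle4 by edgeR on the 12 libraries.

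**Figure D5:**
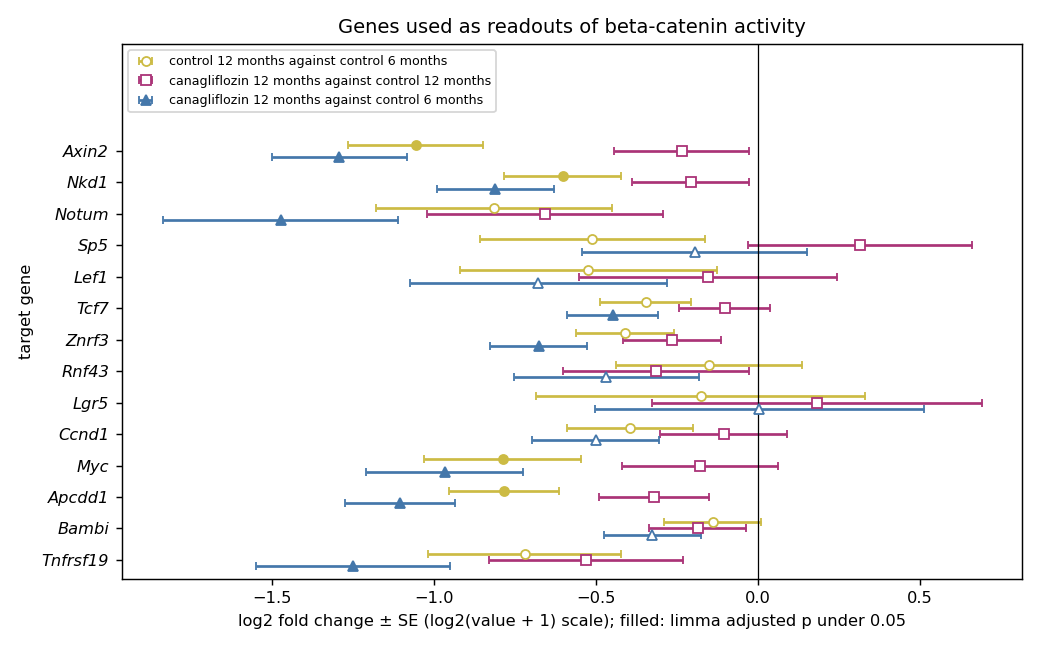
Log2 fold change ± SE of 14 genes used as readouts of beta-catenin activity in the 3 comparisons (yellow circles for age, purple squares for the drug, blue triangles for canagliflozin against the 6-month controls; 5 libraries per group). Filled symbols have a limma adjusted p under 0.05: 4 with age, none with the drug and 8 against 6 months. All 14 circles lie to the left of 0.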

How the data were processed

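Polyadenylated RNA of 15 mouse ovaries was sequenced as directional libraries, per the labels' protocols. The submitters' processing notes name Partek 11.0 and mm39. The aligner, the counter and the annotation they used go unnamed in the sources used here. The values the authors deposited are a signal: judged by their steps, reads over 1 size factor per library. Whole reads were recovered (at least 99.99% of values whole within 0.1 of a read), although in 3 libraries (canagliflozin replicates 4 and 5, 6-month control replicate 5) the step was too close to 1 to be told from rounding. The labels state a far lower depth than the reads recovered, and the difference was not resolved.

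Genes at 10 or above in 5 or more of the 15 libraries (17569; 7087 removed) were tested on log2(value + 1) with limma 3.58.1 (R 4.3.3; trend, robust), all libraries in 1 fit, with Benjamini-Hochberg adjustment. The test was checked on simulated reads. Alternatives were edgeR 4.0.16 and DESeq2 1.42.0 on the recovered reads, TMM scaling, pseudocounts of 0.5 and 5, no filter or a filter of 50, an adjusted p under 0.1, only the 2 groups compared, a replicate block and each library left out. Added after the data were seen were edgeR on 12 libraries and the correction for GC content and length. Exon lengths and GC content came from GENCODE M21 (GRCm38) by gene identifier.

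The members and lists were chosen with earlier results of these data known. Values in every library are given for members called in any comparison and for Wnt4, Rspo1, Lgr5, Sfrp4, Fzd4 and Fzd1; from the pathway lists the called genes are named. Marker lists were granulosa, luteal, theca, stroma, surface epithelium, smooth muscle and pericyte, endothelial, oocyte, macrophage, oviduct, fat and red cell genes. Libraries of the same group were compared in pairs, and each pair differed by more than counting noise. The precision of low members is limited by their reads.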

Additional observations from a re-analysis of the deposited data

Results flagged for a closer look

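In each group of 5 libraries, the highest and the lowest value of each member were compared with the nearest other value. The gap divided by the range exceeded Dixon's critical value of 0.71 in 8 of 93 member and group pairs. Chance flags about 1 in 20 where values are normally distributed and sets are independent. These reads can be skewed and the 93 sets share 15 libraries, so no excess can be read from the count. In the canagliflozin group, replicate 1 was high for Wnt7b (433 normalised reads, the next library 43.4) and for Sfrp2 (201, the next 35.8). Replicate 5 was high for Wnt2b (371, the next 172) and low for Sfrp1 (967, the next 1575). Replicate 3 was low for Fzd2 (145, the next 222). In the 12-month controls replicate 5 was low for Lgr6 (283, the next 400.0). In the 6-month controls replicate 3 was high for Wnt4 (8191, the next 3602) and for Wnt11 (22.4, the next 12.7).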

How the results depend on the processing

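The counts of members called varied with the processing. With age, the higher count (1) was 2 by edgeR, by DESeq2 and at an adjusted p under 0.1, 0 with the correction for GC content and length, and 0 to 1 with 1 library left out. The lower count (5) was 8 at an adjusted p under 0.1, 2 with that correction and 3 to 6 with 1 library left out. With the drug, the lower count (0) was 1 by DESeq2. The drug calls over all genes (1) were 9 by edgeR, 59 by DESeq2, 23 by edgeR on 12 libraries, 2 without a filter, 11 at an adjusted p under 0.1, 0 with only the 2 groups compared, 0 with the correction for GC content and length, and 0 to 37 with 1 library left out. For canagliflozin against 6 months, the higher count (3) was 1 by edgeR on 12 libraries and 1 to 4 with 1 library left out, and the lower count (7) was 11 at an adjusted p under 0.1. The cause of these shifts was not tested beyond what each setting changes by construction.

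With the replicate block, members called were 1 higher and 5 lower with age, 0 with the drug, and 2 higher and 6 lower for canagliflozin against 6 months (Sfrp4 and Wnt5a were lost), and drug calls over all genes were 3. Replicate numbers only count mice within a group: 3 of 15 same-numbered pairs of libraries correlated above 0.1 (range -0.298 to 0.249), and 6 of 15 libraries correlated best with their own number.

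No called member changed sign under any setting run. Of the 831 refits of the 31 members in each comparison, the sign changed in 44 with age (10 members), in 63 with the drug (14 members) and in 37 against 6 months (8 members), all of them of members not called. Depth limits the lowest members, such as Fzd9, Fzd10, Wnt11 and Dkk2, and with 5 libraries per group the spread between mice limits Sfrp2, Sfrp4, Wnt7b and Wnt10a.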
